A study of Mus musculus with 2 samples.

Results

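*Car3*, *Ism1*, *Tmem132d*, *Dpp10*, *Ccdc85a* and *Fam19a1* are 6 genes whose RNA was at a much lower level in embryonic mouse ureters when the secretion of WNT proteins was blocked. They were chosen by the measured values of this very comparison, a ratio of treated over control at least 2-fold lower on both arrays, and every probe carrying one of these 6 names was then taken. This gave 11 of the 39429 probes and 6 of the 29924 gene names on the array. Because these ratios chose the genes, their changes are described below without a test. Ureters of wildtype NMRI embryos were explanted at E11.5 and kept on transwell membranes over 18 h, either with 10 µM IWP-2, an inhibitor of the acyltransferase PORCN, or with the solvent DMSO alone (2 parts per 1000). Sex was not determined. For each of 2 arrays, RNA of a treated pool and of a control pool was labelled with different dyes and hybridised together. The treated pool carried AlexaFluor647 on array 1 and AlexaFluor555 on array 2. Each pool held several ureters, and each ureter held both its epithelium and its mesenchyme, so that fewer cells of a type and less RNA per cell cannot be told apart.

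WNT proteins are secreted only after PORCN has attached a lipid to them. In the canonical branch of the pathway, a WNT bound to its receptors stabilises beta-catenin, which enters the nucleus and activates genes together with the TCF/LEF factors. In the early ureter, WNTs made by the epithelium act on the mesenchyme around it, from which the smooth muscle later arises. The 6 genes encode proteins of unlike kinds. *Car3* codes for a carbonic anhydrase, a cytosolic enzyme of low activity that is abundant in skeletal muscle and fat. *Ism1* and *Fam19a1* code for secreted proteins. *Tmem132d* and *Dpp10* code for single-pass membrane proteins best known from the nervous system, and *Ccdc85a* for an intracellular coiled-coil protein.

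On both arrays 68.6% to 70.7% of the 157716 spots were well above background and none was saturated. A log2 change is that of IWP-2 over control after background correction and loess normalization, averaged over the 2 arrays and given with their standard deviation (SD). A processed signal is the brightness that the scanner software wrote after its own correction, as the geometric mean of up to 4 spots of a probe. It is comparable between the channels of a probe but not between probes. Of 20119 genes with a probe bright enough to test, 59 (0.293%) were lower by at least 2-fold on both arrays, and 5 of the 6 genes were among them, as the choice required. The sixth, *Ccdc85a*, lay just outside after loess normalization and inside by the processed signals. In the fit across all genes with limma, 232 genes (1.15%) were lower and 123 (0.611%) higher at a false discovery rate (FDR) of 0.05 after Benjamini-Hochberg adjustment. The median SD between arrays over all tested genes was 0.11.

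**Figure D1:**
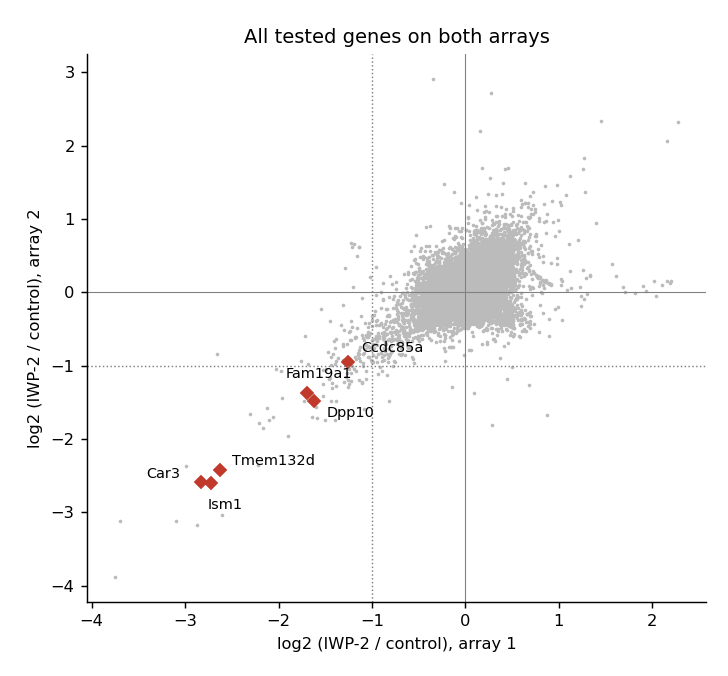
Log2 change (IWP-2 over control) on array 1 against array 2 for the 20119 tested genes in grey, with the 6 genes as red diamonds and a dotted line at a fall of 2-fold on each axis. *Car3*, *Ism1* and *Tmem132d* lie together between -2.83 and -2.42, *Dpp10* and *Fam19a1* between -1.70 and -1.37, and *Ccdc85a* crosses the line on array 1 only.

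Of the secreted proteins, ISM1 (isthmin 1) binds the integrin of the chains ITGAV and ITGB5 and the chaperone HSPA5 at the cell surface, and can antagonise the TGF-beta family ligand NODAL. *Ism1* had 1 probe (A_51_P352385, mm9 chr2:139583801-139583860). Its processed signal was 86.8 with IWP-2 and 654 in the control on array 1, and 68.3 and 501 on array 2. The control was bright and the treated channel dim on both arrays, and no treated spot came near a control spot. The change was -2.72 on array 1 and -2.60 on array 2, a mean of -2.66 ± 0.08 (SD, n = 2) or 6.33-fold lower. The integrin chains and the chaperone did not pass the test, with mean log2 changes of -0.02 for *Itgav*, 0.19 for *Itgb5* and 0.16 for *Hspa5*. Of 12 tested genes of NODAL signaling 0 passed in limma, and their median was 0.04. Several of them were dim, such as *Foxh1* and *Acvr1c* with processed signals of at most 7.75 and 9.40, so that a change could be missed.

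FAM19A1, now named TAFA1, is a small secreted protein of a chemokine-like family made mainly in the brain, and binds neurexins. *Fam19a1* had 1 probe (A_55_P2055031, mm9 chr6:96607132-96607191). The processed signal with IWP-2 and in the control was 58.4 and 221 on array 1, and 72.3 and 211 on array 2. The treated spots ranged from 49.6 to 77.8 on array 1, a wider spread than on array 2 (70.1 to 75.8), and all lay below the control spots. The change was -1.70 and -1.37, a mean of -1.53 ± 0.23 (SD, n = 2) or 2.89-fold lower. Other genes of its family did not pass the test, with -0.44 for *Fam19a2* (adjusted p = 0.110, limma), 0.25 for *Fam19a3* and -0.17 for *Fam19a5*, while *Fam19a4* was too dim to test. The probe of *Fam19a3* was dim, with processed signals of at most 18.1 in any channel, and its change by these signals was 0.51. Of the 3 neurexin genes 0 passed in limma, with changes between -0.36 and 0.18.

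CAR3 hydrates carbon dioxide in the cytosol. The only probe of *Car3* (A_51_P431329, mm9 chr3:14871781-14871840) had a processed signal of 297 with IWP-2 and 2169 in the control on array 1, and of 305 and 1930 on array 2. Both treated values were alike and far under both control values, and the spots of each channel differed little. The change was -2.83 and -2.58, a mean of -2.71 ± 0.18 (SD, n = 2) or 6.53-fold lower, which placed *Car3* at rank 6 from the lowest of all tested genes. *Ism1* stood at rank 8 and *Tmem132d* at rank 9.

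TMEM132D belongs to a family of membrane proteins with immunoglobulin-like domains. *Tmem132d* had 2 probes on chromosome 5. The brighter one (A_66_P136064, mm9 chr5:128262048-128262107) had a processed signal of 66.8 with IWP-2 and 486 in the control on array 1, and of 82.8 and 518 on array 2. Its change was -2.63 and -2.42, a mean of -2.53 ± 0.15 (SD, n = 2) or 5.76-fold lower. The second probe (A_51_P187954, mm9 chr5:128263886-128263945) was dimmer, with 8.01 against 73.2 on array 1 and 11.1 against 72.5 on array 2. With IWP-2, 3 of its 4 spots were well above background on array 1 and 4 of 4 on array 2. Its change was -1.84 ± 0.14 (SD, n = 2) after loess normalization and -2.95 by the processed signals. The offset of 50 added to every channel brings the ratio of a dim probe nearer to 1 by construction. Both probes were lower on both arrays. The brighter probe shared a stretch of 15 bases with a probe of *Acap2*, whose change was -0.01 and 0.15.

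DPP10 resembles the serine protease DPP4 but lacks enzymatic activity, and is an auxiliary subunit of the Kv4 potassium channels. *Dpp10* had 3 probes on chromosome 1, which did not give the same picture. The first 30 bases of each are shown because the third probe differs from the others in its sequence as well as in its change. Capitals mark stretches made of words of 10 bases that occur again within the same 60-base probe.
A_55_P1968078: cctgatctttgatggctgagctgcaatcta
A_55_P1969670: tgtgtcttcactgctccattagattcaatt
A_66_P118316: TGTTTATATCTCtcttgttTTTATATCTCC
In the third probe 35 of the 51 words of 10 bases occurred again, against 0 in every other probe of the 6 genes. It also shared a stretch of 15 bases with a probe of another gene, *Ppp2r5a*, whose change was 0.29 on array 1 and -0.28 on array 2.

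The first *Dpp10* probe (A_55_P1968078, mm9 chr1:125230381-125230440) had a processed signal of 53.6 with IWP-2 and 203 in the control on array 1, and of 65.7 and 208 on array 2. Its change was -1.62 and -1.48, a mean of -1.55 ± 0.10 (SD, n = 2) or 2.93-fold lower. The second probe (A_55_P1969670, mm9 chr1:125229063-125229122) had 52.6 against 160 and 61.7 against 173, and a change of -1.34 ± 0.06 (SD, n = 2), for which 2 spots with an outlier mark were dropped on array 2. These probes were lower by like amounts on both arrays. The third probe (A_66_P118316, mm9 chr1:125218048-125218088) had 112 with IWP-2 against 75.2 in the control on array 1, and 96.5 against 115 on array 2. Its change was 0.50 and -0.23, so that the channel with AlexaFluor647 was the brighter one on both arrays, and the mean of 0.14 was within the SD of 0.52. The transcripts listed for the first and for the second probe include the RefSeq transcript of *Dpp10*, while those listed for the third do not.

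*Ccdc85a* belongs to a small family of proteins that bind catenins of cell junctions. It had 3 probes on chromosome 11, and the brightest of them stood for the gene. That probe (A_55_P1980521, mm9 chr11:28288815-28288874) had a processed signal of 67.0 with IWP-2 and 184 in the control on array 1, and of 71.7 and 151 on array 2. Its change was -1.25 and -0.94, a mean of -1.10 ± 0.22 (SD, n = 2). On array 2 this was 1.92-fold lower after loess normalization and 2.11-fold lower by the processed signals, on either side of the 2-fold limit. The second probe (A_55_P2018027, mm9 chr11:28296101-28296160) had 11.504 against 25.1 and 10.6 against 19.0, with every spot well above background in both channels. Its change was -0.51 ± 0.13 (SD, n = 2) after loess normalization and -0.98 by the processed signals, beside -1.26 by the processed signals for the first probe. On array 2 the second probe was 1.34-fold lower after loess normalization and 1.80-fold lower by the processed signals, both under the 2-fold limit. The third (A_51_P101985, mm9 chr11:28475404-28475463) had no spot well above background with IWP-2 on either array. In the control 3 of its 4 spots were well above background on array 1 and 0 on array 2, and it is given no fold.

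**Figure D2:**
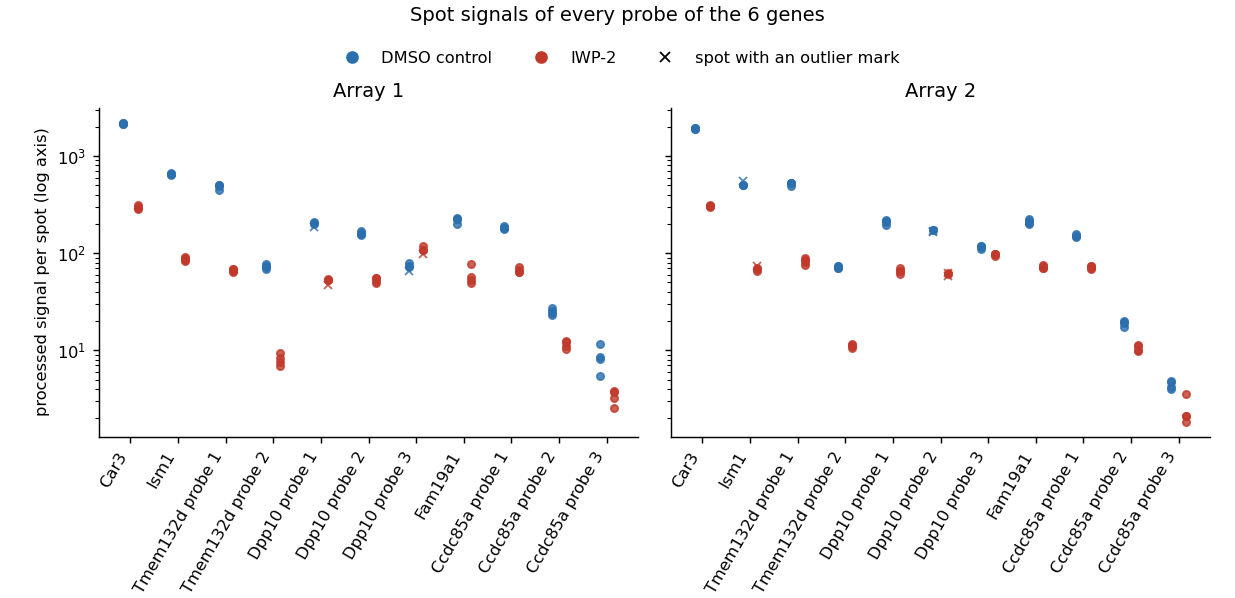
Processed signal of each spot on a log axis, for every probe of the 6 genes, with controls in blue, IWP-2 in red, array 1 on the left and array 2 on the right, and crosses for spots with an outlier mark. In 21 of 22 pairs of a probe and an array all treated spots without a mark lie below all control spots, the exception being the third *Dpp10* probe on array 1.

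**Figure D3:**
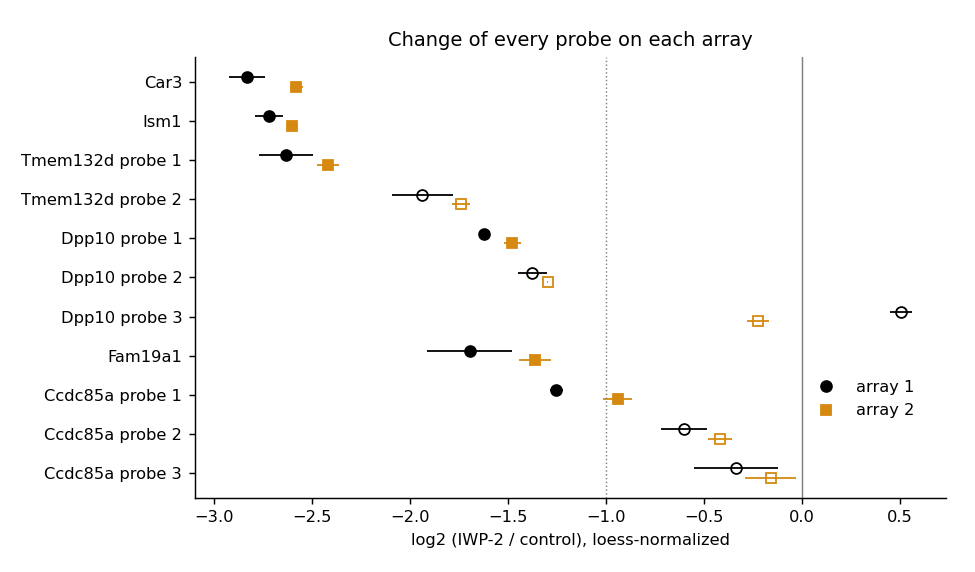
Log2 change (IWP-2 over control) of every probe on array 1 (black circles) and array 2 (orange squares), with bars for the SD over the spots of a probe on that array, filled symbols for the probe used per gene and a dotted line at a fall of 2-fold. Both arrays lie below 0 for all probes but the third of *Dpp10*, at 0.50 and -0.23.

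Promoter sequences were at hand in the RefSeq table for 3 of the 6 genes, *Dpp10*, *Fam19a1* (as *Tafa1*) and *Ccdc85a*. The 250 bases before the annotated start are shown 5′ to 3′ on the strand of the gene, in build GRCm38.p6, because TCF/LEF factors act by binding DNA at WNT target genes. Capitals mark a match to a forkhead motif (TGTTTAC or TGTTTAT on either strand).
*Dpp10* (chr1:124045560-124045809, minus strand): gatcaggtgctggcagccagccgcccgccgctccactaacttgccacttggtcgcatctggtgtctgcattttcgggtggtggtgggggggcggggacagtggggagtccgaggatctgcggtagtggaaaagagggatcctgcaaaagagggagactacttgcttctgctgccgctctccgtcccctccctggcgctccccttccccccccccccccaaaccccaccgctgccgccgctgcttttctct
*Fam19a1* (chr6:96112904-96113153, plus strand): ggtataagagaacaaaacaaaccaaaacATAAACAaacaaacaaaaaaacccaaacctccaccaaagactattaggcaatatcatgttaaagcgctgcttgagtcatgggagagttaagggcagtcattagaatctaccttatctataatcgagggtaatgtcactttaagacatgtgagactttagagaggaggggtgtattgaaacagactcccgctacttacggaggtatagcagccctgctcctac
*Ccdc85a* (chr11:28584325-28584574, minus strand): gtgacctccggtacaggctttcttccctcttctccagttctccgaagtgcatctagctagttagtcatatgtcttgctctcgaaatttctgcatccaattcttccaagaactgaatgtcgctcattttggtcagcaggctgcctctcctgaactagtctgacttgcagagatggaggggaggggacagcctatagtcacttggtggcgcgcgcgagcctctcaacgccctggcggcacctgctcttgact
The TCF/LEF motif searched was CTTTGAA with its variant CTTTGAT, and also CTTTGTA with its variant CTTTGTT, on both strands. None of these letters occurred in the 3 windows, and 14.8% of 32851 promoters held at least 1 of them in the same 250 bases. As most promoters also lacked them, and sites further away were not searched, this search cannot decide whether TCF/LEF factors bind near these genes. The study used public binding data for beta-catenin and TCF/LEF factors, which also covered introns and distal regions. The forkhead motif occurred once, in *Fam19a1* on the minus strand at -222 to -216 from the start, and in 7.10% of all promoters. The windows of *Dpp10*, *Ccdc85a* and *Fam19a1* held 14, 10 and 4 CpG dinucleotides, beside a median of 6 over all promoters.

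Genes related to the 6, or known as partners of their proteins, were listed by family or partnership, with earlier results of these data known. They were read from the fit across all genes. Of 49 tested relatives, 3 were lower and 0 higher at FDR 0.05, and their median change was -0.02, beside 1.15% lower and a median of 0.00 over all genes. All 3 were paralogs within a member's own family. *Dpp6*, the closest relative of *Dpp10* and likewise an auxiliary subunit of Kv4 channels, fell by 0.97 on the log2 scale (adjusted p = 0.0107, limma). Its processed signal was 326 with IWP-2 and 661 in the control on array 1, and 352 and 696 on array 2. A second, dim probe of *Dpp6* had a change of -0.48 ± 0.12 (SD, n = 2). *Tmem132c*, a paralog of *Tmem132d*, fell by 0.97 (adjusted p = 0.0137, limma), from 519 to 229 on array 1 and from 461 to 250 on array 2. *Car14*, which codes for a membrane-bound carbonic anhydrase, fell by 0.92 (adjusted p = 0.0119, limma), from 603 to 299 and from 725 to 387. In these 3 genes the treated signal was lower on both arrays. The probe that stood for the member of the same family fell further, but the members were chosen for large falls.

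Other family members gave no call. The enzymatically active *Dpp4* had a change of 0.21, *Dpp8* of -0.04 and *Dpp9* of 0.07. *Fap*, of the same family, had a rise of 0.62 (adjusted p = 0.0580, limma). *Tmem132a* had -0.12 and *Tmem132e* 0.16, and *Tmem132b* was too dim to test. *Ccdc85b* and *Ccdc85c* had -0.03 and 0.00. The probe of *Ccdc85b* was dim, with processed signals of at most 24.5 in any channel, where the offset brings a change nearer to 0. Of 6 tested genes for Kv4 channels and their cytosolic KChIP subunits 0 passed in limma, with a median of -0.05. They ranged from -0.57 for *Kcnd3*, with -1.21 on array 1 and 0.07 on array 2, to 0.51 for *Kcnip2*. The calls of *Car14*, *Tmem132c* and *Dpp6* were kept under 9, 9 and 10 of 13 other settings. They were lost with median centring in place of loess (and those of *Car14* and *Tmem132c* with the series table too), with a dye term and each channel as an observation, and with processed signals raised to a floor of 15 (highest adjusted p = 0.501, limma), where the last setting and the dye term left 0 genes of the whole array below FDR 0.05.

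**Figure D4:**
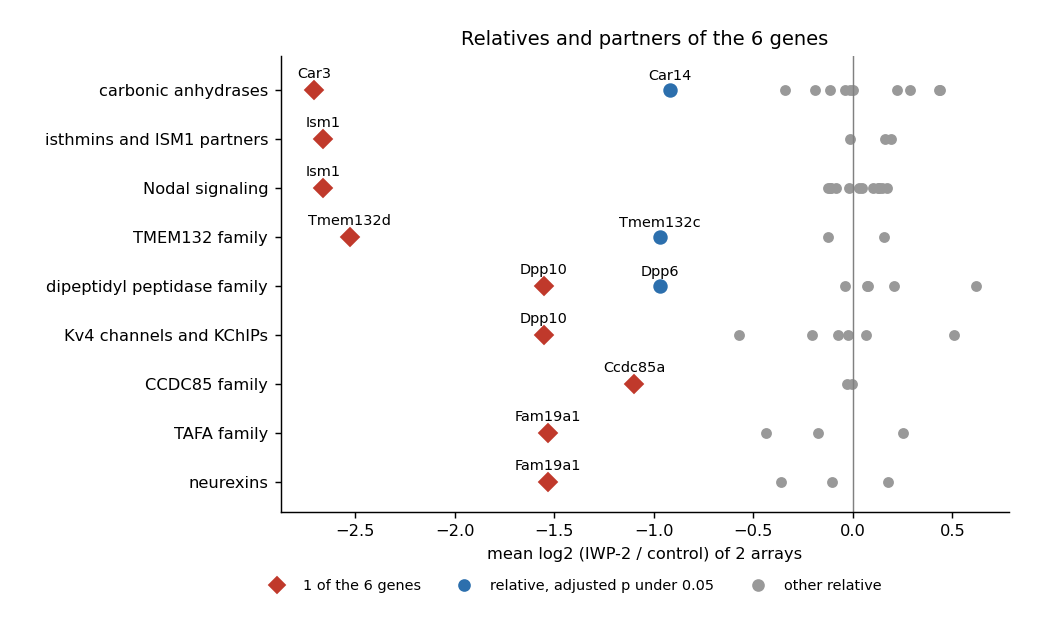
Mean log2 change (IWP-2 over control, 2 arrays) of the relatives and partners of the 6 genes by family, with the 6 genes as red diamonds, relatives past FDR 0.05 in blue and all others in grey. *Car14*, *Tmem132c* and *Dpp6* lie between -0.97 and -0.92, and most other relatives lie around 0.

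To see whether genes beside the 6 on the chromosome changed too, the 3 nearest tested genes on either side of each were taken by probe position. Of these 36 neighbours 2 were lower and 0 higher at FDR 0.05, and their median was 0.00. Both lay beside *Tmem132d*. *Tmem132c*, described above, lay 216 kb away. *Fzd10*, which codes for a frizzled receptor of WNTs, lay 848 kb away on the other side and fell by 2.29 on the log2 scale (adjusted p = 0.0004, limma), with processed signals of 337 with IWP-2 and 1638 in the control on array 1 and of 318 and 1692 on array 2. *Slc15a4*, nearer to *Tmem132d* than *Tmem132c* at 186 kb, had a change of 0.09. *Car3* lies in a cluster of carbonic anhydrase genes, and its neighbours *Car2* at 28.4 kb, *Car1* at 104 kb and *Car13* at 209 kb had changes of 0.29, 0.00 and -0.34, none past the test. The probe of *Car1* was dim, with processed signals of at most 11.9 in any channel. For *Dpp10* the nearest tested genes were at least 1779.9 kb away.

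**Figure D5:**
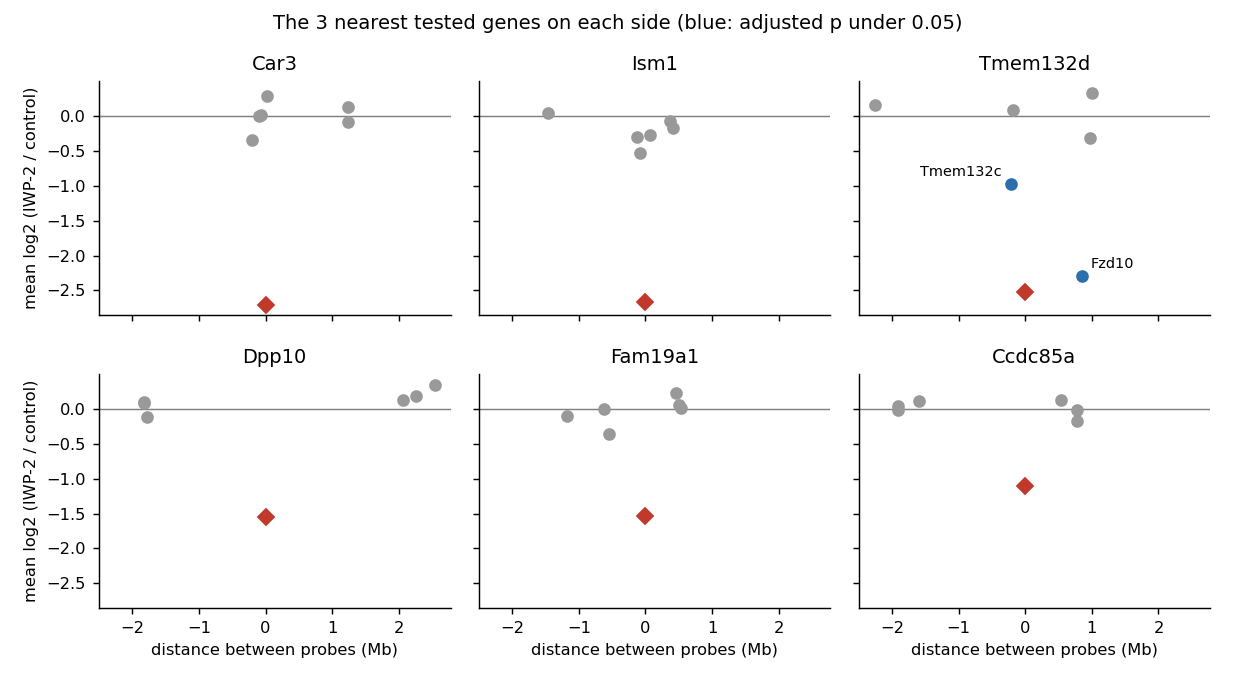
Mean log2 change (IWP-2 over control, 2 arrays) of the 3 nearest tested genes on each side of each of the 6 genes (red diamonds at 0), against the distance between probes in Mb, with genes past FDR 0.05 in blue. The 2 neighbours in blue, *Tmem132c* and *Fzd10*, both flank *Tmem132d*.

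Among 16 genes known as WNT targets in many tissues, 7 were lower and 0 higher at FDR 0.05, with a median of -0.57. The list was drawn up with earlier results of these data known, and does not hold any of the 6 genes. The 7 were *Nkd1* (-1.31) and *Apcdd1* (-1.27), which code for inhibitors of the pathway, the transcription factor genes *Sp5* (-1.12), *Tcf7* (-0.89) and *Lef1* (-0.89), the secreted WNT inhibitor gene *Wif1* (-0.84) and the receptor gene *Tnfrsf19* (-0.73). *Axin2*, a feedback inhibitor, had -1.38 and -0.64 on the arrays and an adjusted p of 0.0502 in limma. The changes of *Car3*, *Ism1* and *Tmem132d* were larger in size than that of any of these 16 genes, a description that rests on values used to choose them. With median centring 1 of the 16 was called, and with the dye term 0.

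By the distance between their pairs of log2 ratios, 1 per array, *Car3*, *Ism1* and *Tmem132d* were nearest to one another and then to *Penk*, which codes for the opioid precursor proenkephalin. *Dpp10* was nearest to *Gpr37* (-1.58), *Pou3f1* (-1.60) and *Rxfp1* (-1.46), and *Fam19a1* to *Pou3f1*, *Dpp10* and *Rxfp1*. *Ccdc85a* was nearest to *Sdc2* (-1.11), *Dapl1* (-1.07) and *Tshz3* (-1.12). Within a distance of 0.25, *Car3* had 1 other gene and *Ccdc85a* had 40. With 2 arrays, such likeness says only that the sizes of change were near.

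As *Car3* is known from muscle and fat and *Tmem132d*, *Dpp10* and *Fam19a1* from nerve cells, markers of these cell types were read too. The muscle regulators *Myf5*, *Myf6* and *Pax7* and the muscle enzyme *Ckm* were too dim to test, with processed signals of at most 4.30 in any channel, and of 9 tested muscle genes 0 passed in limma, with a median of 0.02. The summed signal of the muscle list was 964 and 991 with IWP-2 and 1269 and 1075 in the controls. In such a sum over probes the brightest weigh most. Of the fat markers, *Adipoq*, *Cidec*, *Lep* and *Plin1* were too dim to test. The 3 that were tested were all higher on both arrays, with a median of 0.39. Only *Fabp4*, which endothelium also expresses, passed the test, with a rise of 0.74 (adjusted p = 0.0430, limma). Of all 20119 tested genes, 28.5% were higher on both arrays. Of 12 neuronal genes 10 were higher on both arrays and 0 of these passed in limma, *Isl1* fell by 0.61 (adjusted p = 0.0423, limma), and the median was 0.34. The summed signal of the neuronal list was 79534 and 69656 with IWP-2 and 67562 and 60959 in the controls.

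Markers of the labelled tissue were present, as all 10 genes of the ureteric epithelium and all 10 of the ureteric mesenchyme were bright enough to test. Of the mesenchymal genes 7 were lower and 2 higher on both arrays, with a median of -0.34 over the list. Over all tested genes, 27.5% were lower and 28.5% higher on both arrays. Among the lower mesenchymal genes 3 passed in limma, *Foxf1* with a fall of 1.57, *Tbx18* of 1.03 and *Tcf21* of 0.77. The study proposes *Foxf1* as a direct target of WNT signaling and reports loss of *Tbx18* in mutants without mesenchymal beta-catenin. For these 2 genes a lower level per cell and fewer cells cannot be told apart. The 2 higher genes, *Pdgfrb* (0.50) and *Twist1* (0.45), did not pass. The summed signal of the mesenchymal list, in which the brightest probes weigh most, was 48495 and 49919 with IWP-2 and 64489 and 57138 in the controls. Of the epithelial genes 0 passed in limma, with a median of 0.10. Of 6 endothelial genes 6 were higher on both arrays, 2 of them past the test, *Kdr* (0.74) and *Cldn5* (0.65). The median of the neural crest and glia list was 0.22. Of 7 kidney mesenchyme genes 2 were higher and 3 lower on both arrays, with a median of -0.02, and *Meox1* (0.96) alone passed the test. The part of a shift in cell types in the lower levels of the 6 genes was not tested.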

How the data were processed

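RNA of 2 pairs of pools (IWP-2 and DMSO control) was measured on 2 two-colour Agilent arrays of design 084956, both on 1 slide, with the dyes swapped. Whether the pools came from separate cultures or dissections is not given in the sources used here. The p-values therefore rest on the spread between these arrays, largely pooled over genes. Per the file headers, the deposited scanner files were written by Feature Extraction 12.2.0.7 (10.7.3.1 in the submitters' processing notes) and hold spot intensity with local background and an intensity corrected for background and dye by the software. The deposited series table holds a score, a signed fold change rounded to 1 decimal, used as an alternative only. Probe positions are on mm9.

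In R 4.3.3 with limma 3.58.1, mean intensities were corrected by normexp (offset 50), log2 ratios were normalized by loess, outlier-marked spots were dropped and the rest averaged per probe. Probes were kept if more than 0.5 of their spots were well above background in 1 condition on both arrays, and the brightest kept probe stood for a gene. Changes were fitted with lmFit and eBayes, the dye swap as sign, with Benjamini-Hochberg adjustment over 20119 genes. With 2 arrays there was 1 residual degree of freedom per gene, which limits the precision. The eBayes step draws the variance of each gene toward a value shared by all genes, on which the p-values largely rest. The fit was also run on simulated data with the same array noise for every gene and no dye effect per gene. That checks the code and not the error rates in these data.

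The 6 genes and all gene lists were chosen with earlier results of these data known. Named were the 6 genes with every probe, relatives, neighbours and WNT targets past FDR 0.05 and the family members nearest in name, the 3 genes nearest in change, and up to 4 markers per list, FDR-passing first. *Tmem132e*, *Tmem132b*, *Fam19a4*, the ISM1 partners, *Slc15a4*, *Axin2*, *Ppp2r5a*, *Acap2* and the dim muscle and fat markers were named outside this rule, after their values were seen. So were *Fap*, *Kcnd3*, *Kcnip2*, *Foxh1*, *Acvr1c*, *Pdgfrb* and *Twist1*. Sequences are from RefSeq (GRCm38.p6) and the scanner files, read with Python 3.11.15.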

Additional observations from a re-analysis of the deposited data

How the results depend on the processing

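All 6 genes kept their direction in each of the 60 recomputed changes, and 14 moved by more than the SD between arrays. As the genes were chosen for falls on these same arrays, the kept direction was largely set beforehand. With processed signals, *Dpp10* was -1.79, *Ism1* -2.89 and *Tmem132d* -2.75, also with a floor of 15. With the series table *Dpp10* was -1.80, *Fam19a1* -1.82, *Ism1* -2.88 and *Tmem132d* -2.79. With the mean of all kept probes, *Ccdc85a* was -0.80, *Dpp10* -0.92 (the repetitive probe included) and *Tmem132d* -2.18, and with an offset of 16 *Ism1* was -2.75. Counts in the fit across all genes depended far more on the processing than the changes of these chosen genes did. The 232 genes lower at FDR 0.05 became 36 with median centring, 98 without a filter on dim probes and 1322 with the series table. The 123 genes higher became 7, 21 and 1038 in these settings, 75 with processed signals, 74 without background correction, 224 with the mean of probes, 224 with a trended prior and 226 with a trended and robust prior. With each channel as an observation and a dye term, 0 genes were lower and 0 higher, with 550 lower and 779 higher at an unadjusted p under 0.05. Processed signals gave 171 lower as deposited, but 0 lower and 0 higher when spots under 15 were raised to 15, with 1108 lower and 1356 higher at an unadjusted p under 0.05. The floor had been applied at first and was set apart as a setting of its own, chosen after seeing the data, once its 0 calls had been seen, so both forms are given. The floor gave 908 genes the same ratio on both arrays, against 0 without it. The 3 relatives lower became 0 with median centring, with the dye term and with the floor. The 2 neighbours became 1, 0 and 0 in these settings and 4 with the series table, and the 7 WNT targets 1, 0 and 0, and 2 with the series table. The 59 genes lower by 2-fold on both arrays became 101 with processed signals and 94 with the series table, and 72 to 144 on a single array, the 144 without array 2. The filter on intensity and fold modelled on the study's methods, which needs at least 100 in the brighter channel, left 50 genes (0.344% of 14549 bright genes). All 6 genes were among them, which their choice by the same 2-fold limit had largely set beforehand. The filter left 165 at 1.5-fold, 17 at 3-fold (without *Ccdc85a* and *Fam19a1*), 26 with 100 in both channels (of the 6 genes only *Car3*), and 63 to 128 on a single array, the 128 without array 2. The intraspot correlation needed for the usual separate-channel model could not be estimated. Each ratio pairs the treated and the control pool of 1 array, so every fit of ratios is paired by array. Signal over background limits the third *Ccdc85a* probe and the second *Tmem132d* probe.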
